A study of Mus musculus with 199 samples.

Results

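The 4 antigen receptor loci of the mouse that are described here are the immunoglobulin heavy chain locus Igh, the immunoglobulin kappa light chain locus Igk, the joint T cell receptor alpha and delta locus Tcra/Tcrd, and the T cell receptor beta locus Tcrb. They were taken as every 40 kb window of the call table whose start lay in a fixed range of the mm9 (NCBIM37) assembly. The ranges were chr12:114400001-117200000 for Igh, chr6:67400001-70720000 for Igk, chr14:53000001-54920000 for Tcra/Tcrd and chr6:40800001-41600000 for Tcrb. They held 70, 83, 48 and 20 windows, which made 221 of the 65983 windows on chromosomes 1 to 19 and X. The rule itself is one of position and uses no measured value, but the loci were picked with earlier results of these data known. All 221 windows had at most 0.0025% undetermined bases, so all of them entered every count of calls.

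The data came from genome architecture mapping, in which thin slices of frozen nuclei are cut out with a laser and the DNA in each is amplified and sequenced. Of 199 libraries, 11 were water controls, 2 held 5 ng of human DNA and all others were each made from a cap labelled as holding 4 nuclear profiles (4NP) of 220 nm sections. The calls say, for each library, which windows were detected, and all of the libraries had failed the quality control of the study. Every cell was of the mouse embryonic stem cell line 46C, given in the labels as strain 129/Ola, whereas the assembly is of C57BL/6J. Since 46C is 1 line, no second genotype or tissue was compared, and its culture in LIF, serum and then serum-free medium was shared by all groups. The libraries fell into 35 groups of 11 experiments on sample handling, and all 4NP libraries entered the ratios, window tests and linkage. Besides the groups compared below, these included 20, 23 or 25 cycles of PCR, early, late or post-incubation freezing, a large or small kit, reagent protocols titled a and c, 1 μl of proteinase K titled csc, 1 or 2 μl titled mdc, and unstained or unfrozen libraries. Those compared here were 21 propidium iodide (PI) libraries, stained at 10 μg/ml, against 21 that were stained and also frozen, 16 libraries stained with 1% crystal violet against 5 unstained (both in the experiment titled as a cresyl violet test), 8 stained with 0.5% eosin in 40% ethanol against 8 in water, 15 titled SYBR Gold against 3 titled unstained, 34 libraries of the full collection against its 6 water controls, and 7 each with titled volumes of 3, 4 and 8 μl of proteinase K. In the SYBR Gold test the titles and the protocols disagree on which libraries were stained, and the titles were followed.

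An antigen receptor locus is a long row of variable (V) segments followed by joining (J) and constant (C) segments, with diversity (D) segments between V and J in Igh, Tcrb and the delta part of Tcra/Tcrd. Developing B and T lymphocytes cut and join 1 segment of each kind, guided by recombination signal sequences beside the segments, and in this way each cell makes its own receptor. Stem cells do not carry out this cutting, so their loci are held in the uncut germline form. The V rows grew by repeated duplication, so parts of them are near copies of each other.

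The annotation of the same assembly (GENCODE M1) placed 110 V, 21 D, 4 J and 6 C segments in Igh, 102 V, 5 J and 1 C in Igk, 108 V, 2 D, 61 J and 1 C in Tcra/Tcrd, and 23 V, 2 D, 14 J and 2 C in Tcrb. Below is, for each locus, the J segment nearest to a constant segment, shown with the place where the signal that guides its joining would stand. Capitals mark the 7 bases beside the segment, where the heptamer CACTGTG of the signal stands in its usual form, and the 9 bases of the nonamer where at least 6 of 9 matched GGTTTTTGT. The nonamer was taken at the spacing, of those tried, that had the most matches. The printed stretches, each a segment with the bases where its signal would stand, lay at chr12:114666725-114666816 on the minus strand (the Igh J segment annotated as Gm16734), chr6:70673841-70673921 (Igkj5), chr14:54838462-54838515 (Traj1) and chr6:41485614-41485685 (Trbj1-7), the last 3 on the plus strand.
Gm16734: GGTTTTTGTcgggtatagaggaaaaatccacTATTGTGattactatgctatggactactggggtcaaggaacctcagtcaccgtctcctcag
Igkj5: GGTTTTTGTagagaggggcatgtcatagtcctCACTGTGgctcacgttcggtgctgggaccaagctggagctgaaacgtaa
Traj1: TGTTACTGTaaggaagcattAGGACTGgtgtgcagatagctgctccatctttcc
Trbj1-7: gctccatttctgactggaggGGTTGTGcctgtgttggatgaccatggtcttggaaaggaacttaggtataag
The heptamer was matched in all 7 bases beside Igkj5, in 5 beside the Igh segment, in 4 beside Trbj1-7 and in 2 beside Traj1. Over the 84 annotated J segments it was exact in 20, or 23.8%, and matched in at least 6 bases in 43. Exact copies on both strands made up 0.0123% of all 7-base positions of the ranges.

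A second set of sequences carries the main finding of the calls, and it was picked after the values had been seen. Trav15d-2-dv6d-2 and Trav15n-2 are V segments of Tcra/Tcrd, 311135 bases apart, in windows that no library called. The first 300 bases of each are given from chr14:53576503-53576802 and chr14:53887638-53887937. The corresponding 300 bases of their relative Trav15-2-dv6-2, at chr14:54269100-54269399, lie in a window called in 14 libraries. Of stretches of 32 bases sampled over that whole window, 47% occur once in the genome. In the windows of Trav15d-2-dv6d-2 and Trav15n-2 it is 1.25% and 1.75%. All 3 segments are on the plus strand, and capitals mark the 2 positions at which Trav15-2-dv6-2 differs from the other 2.
Trav15d-2-dv6d-2: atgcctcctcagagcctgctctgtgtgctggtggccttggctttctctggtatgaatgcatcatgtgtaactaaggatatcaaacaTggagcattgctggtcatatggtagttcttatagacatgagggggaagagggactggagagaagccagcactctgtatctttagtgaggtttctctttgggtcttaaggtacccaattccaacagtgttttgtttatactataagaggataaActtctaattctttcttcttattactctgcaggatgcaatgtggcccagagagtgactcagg
Trav15n-2: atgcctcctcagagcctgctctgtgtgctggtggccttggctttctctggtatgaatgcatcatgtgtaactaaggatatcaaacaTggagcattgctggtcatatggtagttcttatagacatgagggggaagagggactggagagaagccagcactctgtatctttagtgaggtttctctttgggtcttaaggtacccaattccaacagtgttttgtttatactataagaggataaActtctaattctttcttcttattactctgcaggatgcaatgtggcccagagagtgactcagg
Trav15-2-dv6-2: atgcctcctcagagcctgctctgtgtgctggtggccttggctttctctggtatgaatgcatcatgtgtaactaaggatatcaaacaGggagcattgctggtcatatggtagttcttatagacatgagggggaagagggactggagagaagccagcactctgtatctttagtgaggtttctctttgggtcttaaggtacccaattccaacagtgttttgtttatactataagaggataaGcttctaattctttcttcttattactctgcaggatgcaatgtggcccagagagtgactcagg
The first pair was identical over its whole annotated length of 569 bases. The same held for Trav4d-3 and Trav4n-3 over 502 bases, 310937 bases apart, and for Trav12d-3 and Trav12n-3 over 494 bases, 310962 bases apart.

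The libraries differed widely in how much of the genome they held. Genome coverage, the percent of windows called in a library, had a median of 2.47% over the 4NP libraries and ran from 0.00152% to 26.8%, and 73 libraries had less than 1% and 113 at least 1%. The expected number of calls of a locus was therefore set library by library, from the share of called windows on the rest of the same chromosome. The call ratio is the observed number of calls of a locus over this expected number, and its standard error (SE) comes from leaving out 1 library at a time. A ratio more than 2 SE from 1 was taken as beyond error.

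Of the 4 loci, Tcrb was called less often than the rest of its chromosome, and the other 3 were within error of theirs. The 20 Tcrb windows had 104 calls where 165 were expected, a ratio of 0.631 ± 0.154 (SE over all 4NP libraries, as for each ratio here). The 70 Igh windows had 708 calls where 656 were expected, a ratio of 1.08 ± 0.118. The 83 Igk windows had 687 calls where 684 were expected, a ratio of 1.00 ± 0.118. The 48 Tcra/Tcrd windows had 347 calls where 407 were expected, a ratio of 0.852 ± 0.114. Under 2 other settings Tcra/Tcrd was beyond error too, at 0.790 ± 0.0913 with the expected rate from 10 Mb flanks and 0.701 ± 0.107 as a mean of ratios per library. Over all 4 loci the ratio was 0.965 ± 0.0685. That 1 of 4 loci was beyond error is to be read against the rest of the genome. Of all blocks with as many neighbouring windows as Igh, Igk, Tcra/Tcrd and Tcrb, 16.9%, 16.6%, 15.9% and 16.2% were beyond error in either direction. Blocks of 20 windows were beyond error below 1 in 11.2% of 3154 cases, and 3.93% of them had a lower ratio than Tcrb. For Tcra/Tcrd 21.4% of 1295 blocks lay lower, for Igk 51.5% of 746 and for Igh 67% of 894.

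**Figure D1:**
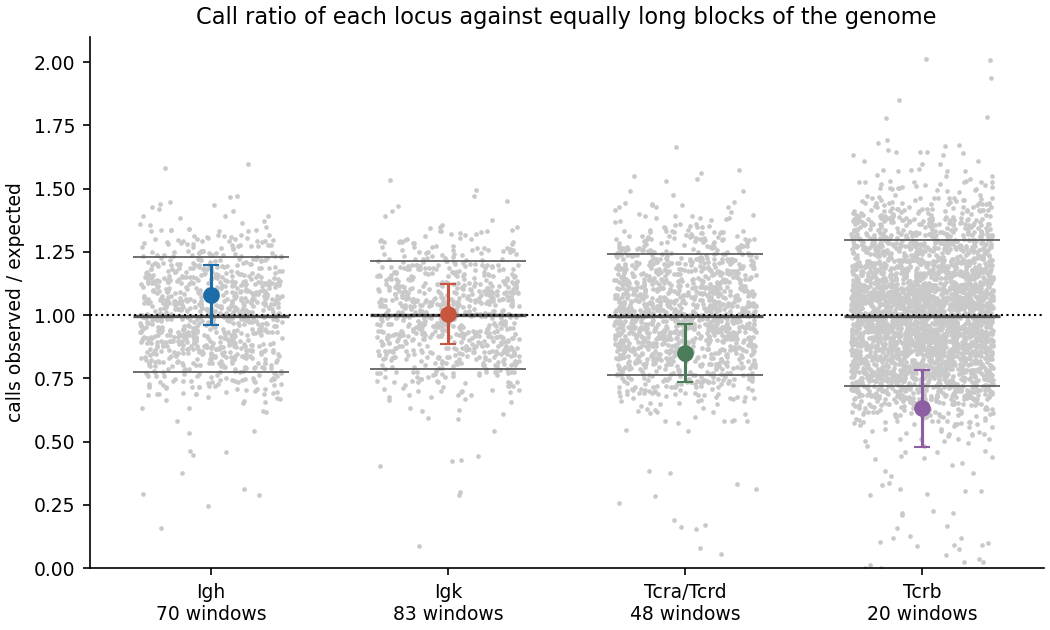
Observed over expected calls of the 4 loci (coloured points, bars of 1 SE from leaving out each 4NP library) beside all blocks of equally many neighbouring windows of chromosomes 1 to 19 and X (grey points), with the 10th, 50th and 90th percentile of the blocks as lines. Tcrb, at 0.631, lies below the 10th percentile of its blocks, 0.720, and the other 3 loci lie between the 10th and 90th percentiles of theirs.

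Window by window, 9 of the 221 windows (4.07%) were called in fewer libraries than expected and 2 (0.905%) in more, by an exact Poisson-binomial test of each window with Benjamini-Hochberg adjustment over 63918 windows. Over all tested windows 0.795% were called low and 0.277% high. All 9 low windows lay in Tcra/Tcrd, and each of them was called in 0 of all 4NP libraries where 8.49 were expected (adjusted p = 0.0235). Since 0 is the lowest count there can be, these windows share 1 p-value, and whether it passes the adjustment depends on how many windows of the genome have it. Before adjustment, 18 of the 221 windows had p below 0.05 on the low side and 7 on the high side, as against 2681 and 2467 of the 63918.

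**Figure D2:**
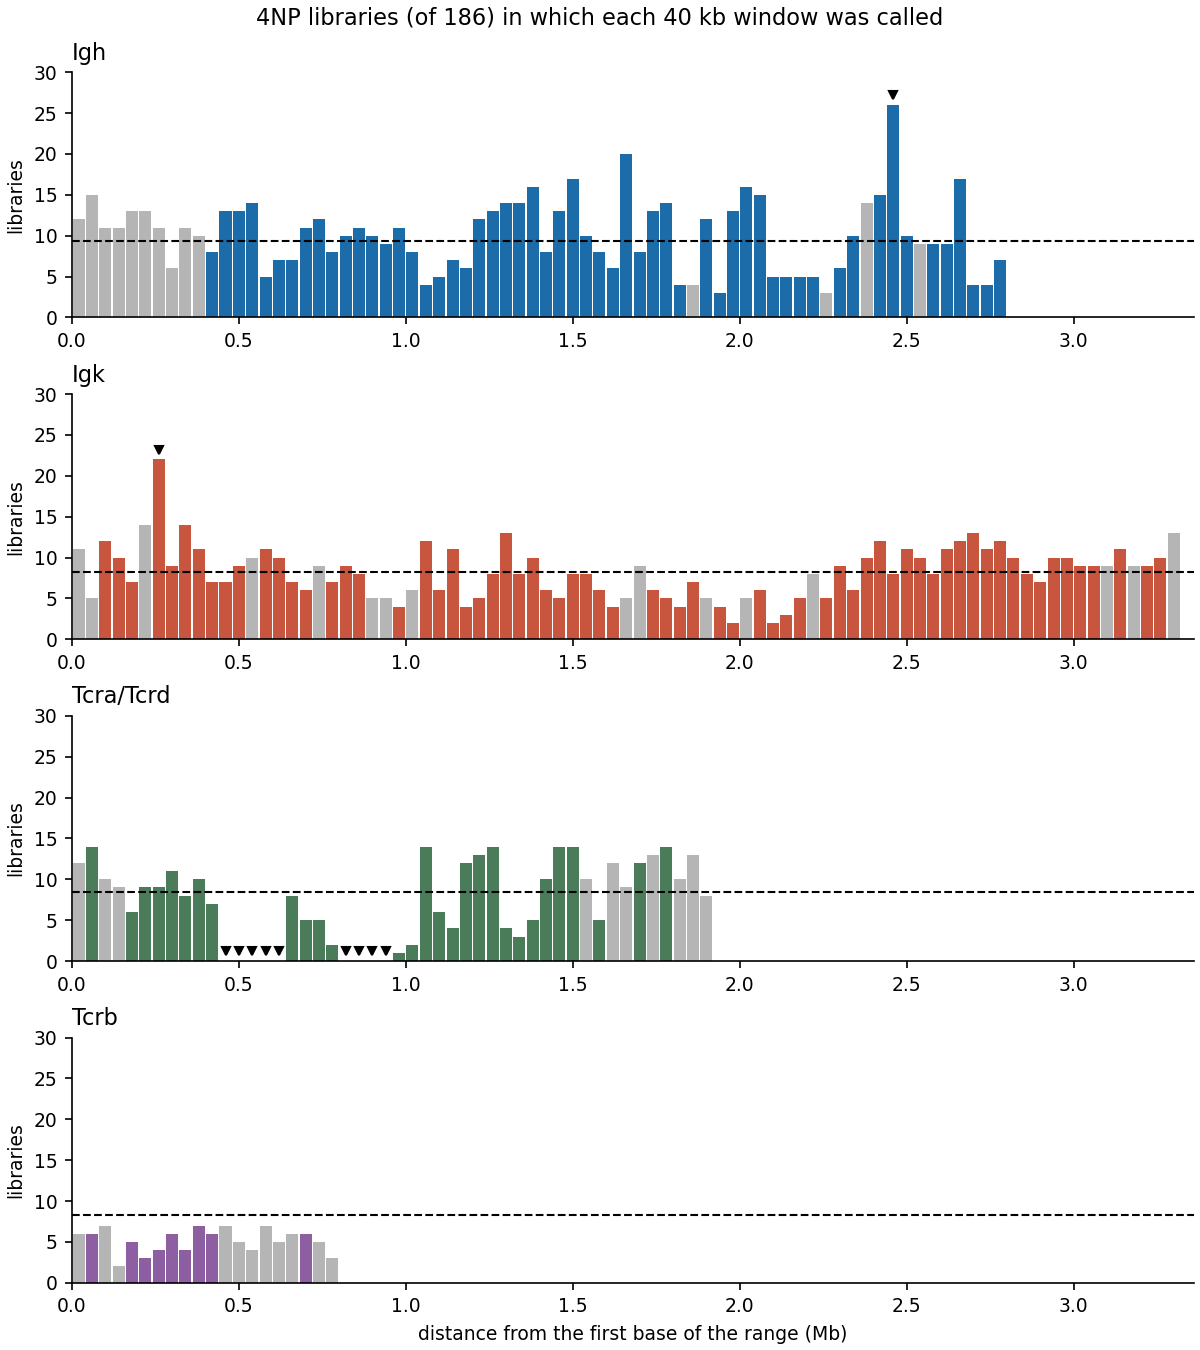
Number of 4NP libraries in which each 40 kb window was called, by distance in Mb from the start of each range; coloured bars are windows with an annotated V segment, grey bars are other windows, dashed lines the expected number and triangles the 11 windows called low or high. Tcra/Tcrd has runs of 5 and 4 windows with no call, and every Tcrb bar ends below its line.

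The Tcra/Tcrd windows without calls formed runs of 5 and 4 in the V row. The first run, windows 12 to 16 of the range, covered chr14:53440001-53640000 and held Trav6d-6, Trav11d, Trav7d-5, Trav12d-1, Trav13d-1, Trav4d-3, Trav12d-3, Trav3d-3 and Trav9d-4 among other V segments. The second, windows 21 to 24, started at position 53800001 and held Trav4n-3, Trav12n-3, Trav15n-2 and Trav9n-4. The letters d and n in these names mark the duplicated parts of the V row. Of 2000 sequences of 32 bases (32-mers) sampled every 100 bases from the first run, 89.3% occurred again, base for base, between positions 53760001 and 54000000, at a median separation of 311 kb. Of the windows between both runs, windows 17 to 19 were called in 8, 5 and 5 libraries and window 20 in 2. Behind the second run, windows 25 and 26 were called in 1 and 2 libraries and window 27 in 14. The highest count of Tcra/Tcrd was 14, and window 2, with Trav1, was the first to reach it. Windows 36 to 38, farther along the V row, were called in 10, 14 and 14. The last windows with V segments, 40, 43 and 45, were called in 5, 12 and 14.

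The share of sampled 32-mers that occur once in the genome separated these windows from the others. It was at most 1.75% in the 9 windows without calls and at least 6.75% in every other window of the 4 loci. The pattern was shared with other parts of the genome: of 839 windows with under 5% single-copy 32-mers, 576 were never called, and their mean was 0.951 libraries. On the rest of chromosomes 6, 12 and 14 the count was 113 of 179. A limit of 5%, chosen after the data were seen, takes out exactly the 9 windows without calls, so the Tcra/Tcrd ratio had to rise, and it was 1.02 ± 0.136 against a rest filtered the same way. How the authors treated reads with several equal matches is not given in the sources used here, and its part in the absent calls was not tested.

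Single-copy sequence was scarcer in the loci than around them. The median window had 62.25% single-copy 32-mers in Igh, 57.5% in Igk, 43% in Tcra/Tcrd and 81.1% in Tcrb, where the rest of the same chromosomes had medians of 89.75%, 90.25%, 88.75% and 90.25%. In Tcra/Tcrd the mean was 1.00 library per window in the 12 windows under 20%, 6.22 in the 9 windows from 20% to 40%, 9.33 in the 9 from 40% to 60%, 8.83 in the 6 from 60% to 80%, 11.3 in the 3 from 80% to 90% and 12 in the 9 of 90% or more. The Tcra/Tcrd ratio in these same classes was 0.118 ± 0.0361, 0.733 ± 0.145, 1.1 ± 0.168, 1.04 ± 0.192, 1.34 ± 0.250 and 1.41 ± 0.222, so it was lowest in the lowest class and did not rise at every step. Igh and Igk had 1 window each under 20%, called in 9 and 10 libraries. The expected rate was also taken within 5 equally large classes of windows by single-copy share on each chromosome. Igh then rose to 1.30 ± 0.146, more than 2 SE above 1. Tcra/Tcrd moved to 0.985 ± 0.124, Igk to 1.15 ± 0.136 and Tcrb to 0.658 ± 0.160. The lowest of these 5 classes spans a wide range of shares, so the match is coarse. In the finer classes with most Igh windows, 40% to 60% (23) and 60% to 80% (25), Igh was at 1.01 ± 0.119 and 1.16 ± 0.149. The rest of chromosomes 6, 12 and 14 had 0.886 and 0.928 there.

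**Figure D3:**
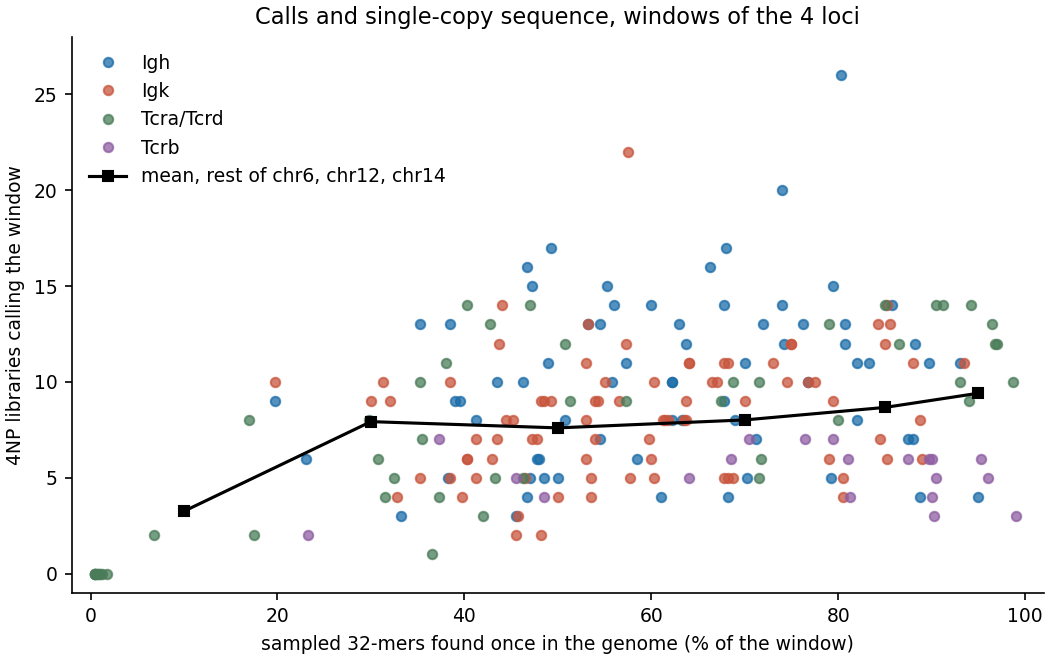
Libraries calling each of the 221 windows (vertical axis) against the percent of its sampled 32-mers found once in mm9 (horizontal axis), with the mean over the rest of chromosomes 6, 12 and 14 in 6 classes as black squares. The 9 windows at 0 libraries are all at the left edge, under 5%, and the Tcrb points stay at 7 libraries or fewer over their whole range.

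Tcrb was low along its whole length. All 20 windows were called in fewer libraries than the 8.24 expected, with a range from 2 to 7 and a median of 5.5, though neighbouring windows share libraries and are not independent. No single Tcrb window passed the adjusted test, and 1 had an unadjusted p below 0.05. The lowest was window 4, with 2 libraries and 23.25% single-copy 32-mers, and the next were window 6 with Trbv4 and Trbv5 and window 20 with Ephb6, at 3 libraries each and 90.25% and 99% single-copy 32-mers. The highest, at 7 libraries each, were windows 3, 10, 12 and 15, and window 10 holds Trbv23 and Trbv26. Window 18 holds both constant segments, Trbc1 and Trbc2, the D segments and all 14 J segments, and was called in 6 libraries (unadjusted p = 0.534 by the exact Poisson-binomial test). The trypsinogen genes Prss1 and Prss2, which code for digestive enzyme precursors and lie between the V and D segments, were in windows called in 5 and 6 libraries. Ephb6, which codes for a receptor of the ephrin family and lies beside the locus, was in windows called in 5 and 3.

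The Tcrb ratio rested on few libraries that held the locus. Calls in Tcrb came from 27 libraries, with none in the other 159, and 1 of them, replicate 3 with 8 μl of proteinase K, gave 17 of the 104 calls. Without it the ratio was 0.541, the lowest value on leaving out any 1 library, and the highest such value was 0.648. In the 7 experiments with at least 5 expected calls the ratio was below 1 in 6 and above 1 in 1, and it ran from 0 to 1.46. It was 0.475 ± 0.170 in the PI and freezing experiment (43 libraries), 0.661 ± 0.170 in the eosin test (17), 0.316 ± 0.141 in the SYBR Gold test (18), 0.491 ± 0.439 in the full collection (34) and 0.883 ± 0.439 in the proteinase K titration (31). With only the 66 libraries of at least 5% coverage it was 0.678 ± 0.186, within 2 SE of 1.

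In Igh the windows ranged from 3 to 26 libraries with a median of 10, and 39 of 70 lay above the 9.38 expected. Window 62, at position 116840001 in the distal V row, held Ighv1-67 and was called in 26 libraries (adjusted p = 0.00110 by the exact Poisson-binomial test). These 26 libraries came from 9 experiments, and in 11 of them neither neighbouring window was called. The next highest, window 42, was called in 20 (adjusted p = 0.0894 by the same test). The lowest were windows 49 and 57, at 3 libraries each, with 45.5% and 33.25% single-copy 32-mers. The window of Ighm, which codes for the constant part of IgM and shares it with all 4 J segments, was called in 11 libraries. Adam6a and Adam6b, genes for sperm proteins that lie at the D segments nearest the V row, were in windows called in 10 and 11, and Tmem121 at the near edge was in a window called in 12. When the expected rate came from windows within 10 Mb instead of the whole chromosome, the Igh ratio was 0.856 ± 0.0959 rather than 1.08, so its direction depends on the part of chromosome 12 it is set against.

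In Igk the windows ranged from 2 to 22 libraries with a median of 8. Window 7, at position 67640001, held Igkv1-133 and 1 other annotated V segment and was called in 22 libraries where 8.24 were expected (adjusted p = 0.0146 by the exact Poisson-binomial test). They came from 5 experiments, and in 13 of the 22 neither neighbour was called. Its neighbour before it, window 6, was called in 14, the second highest count of Igk, which window 9 shared. Windows 6 and 7 were also called in 2 water controls each, and Igh window 62 in 1. None of these 3 windows was called in the 9 water controls with coverage under 1%. The lowest were windows 50, with Igkv4-61 and Igkv4-59, and 53, with Igkv4-57-1, at 2 libraries each. Igkc, the constant segment, shared window 82 with all 5 J segments and was called in 10 libraries. Rpia, the gene for an enzyme of the pentose phosphate pathway at the far edge, was in a window called in 13.

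At the J and C end of Tcra/Tcrd, which was not tested on its own against the V row, the windows with the 61 J segments, 44 to 46, were called in 13, 14 and 10 libraries. Window 47 was called in 13 libraries and holds Trac, the constant segment of the alpha chain, with Abhd4 and with Dad1, a gene for a subunit of the oligosaccharyltransferase. The annotation lists no gene named Trdc, Igha or Vipr2 in the ranges.

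The split into V windows and others was planned for the 4 loci together, where, with 170 V windows and 51 others, the call ratio of the former over the latter was 0.968 ± 0.0574, within error. The split within each locus was added after the data were seen. The 38 V windows of Tcra/Tcrd were called in 0 to 14 libraries (median 5.5) and its 10 other windows in 8 to 13 (median 10). The call ratio was 0.747 ± 0.108 for the former and 1.25 ± 0.171 for the latter, and the first over the second was 0.598 ± 0.0641, beyond error. The ranges overlapped. The V windows had a median of 36.9% single-copy 32-mers and the others 83.25%. Without windows under 5%, which takes 9 windows without calls from the V side only, the V to other ratio was 0.784 ± 0.0840. The medians of single-copy 32-mers were then 42.75% and 83.25%, still apart. With the expected rate from the 5 coarse classes of single-copy share, the V to other ratio was 0.696 ± 0.0746. Both ratios were beyond error. Neither setting compared V and other windows of a like single-copy share, and the part of that share was not tested. In the main setting the V to other ratio was 0.988 ± 0.125 in Igh, 1.04 ± 0.0795 in Igk and 1.01 ± 0.178 in Tcrb. Differences between loci in this ratio were not tested.

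Most libraries held no window of a given locus. Igh was absent from the calls of 116 libraries, Igk of 108, Tcra/Tcrd of 138 and Tcrb of 159, and 75 libraries had no call in any of the 4, while 5 had calls in all. Where a locus was present, the median share of its windows called was 10.7% for Igh, 6.02% for Igk, 10.4% for Tcra/Tcrd and 15.0% for Tcrb. The highest share was 58.6% for Igh (replicate 4 with 4 μl of proteinase K, which also had 47.0% of the rest of chromosome 12), 48.2% for Igk, 47.9% for Tcra/Tcrd and 85.0% for Tcrb. The Tcrb library had 19.3% of the rest of chromosome 6. The longest unbroken runs of called windows were 600 kb in Igh, 440 kb in Igk, 560 kb in Tcra/Tcrd and 480 kb in Tcrb.

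**Figure D4:**
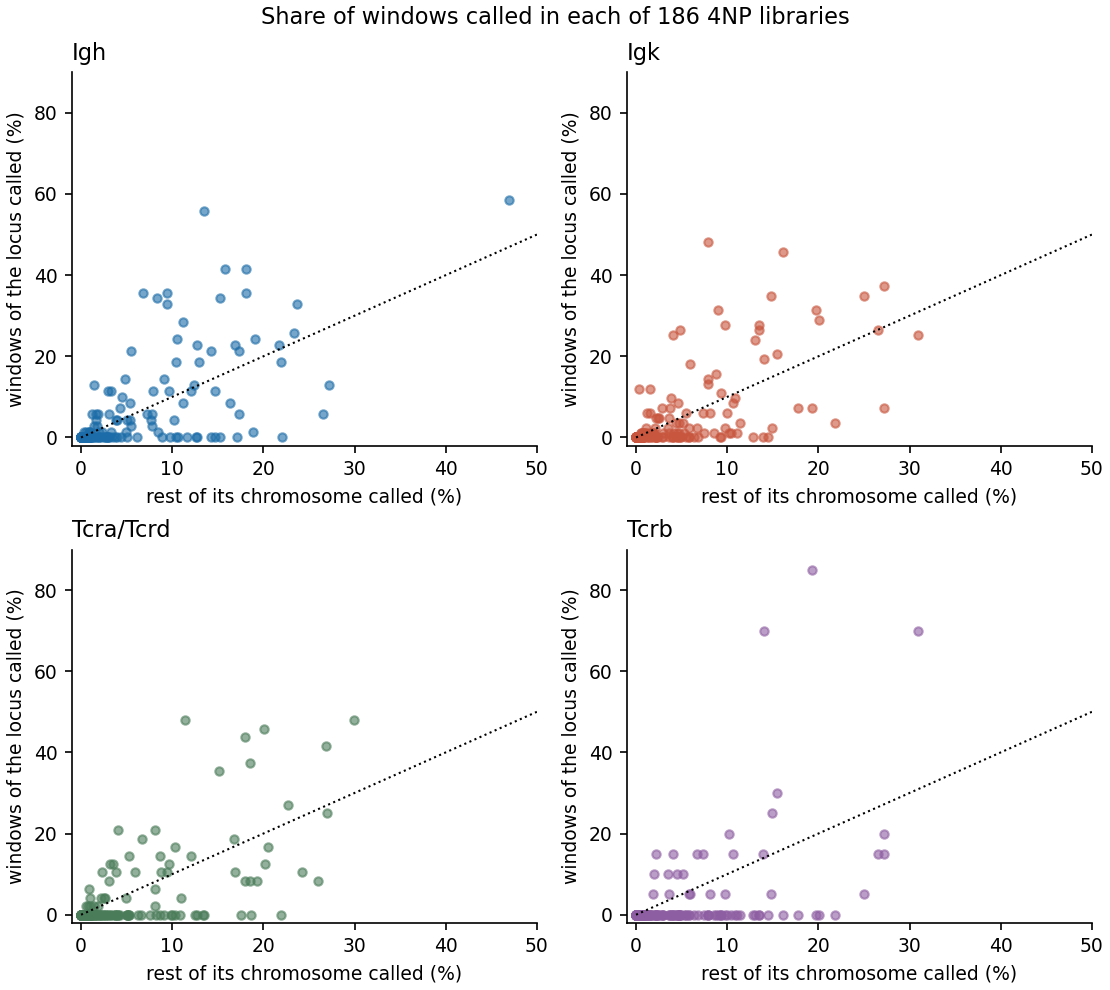
Percent of the windows of each locus called (vertical axis) against the percent of the rest of its chromosome called (horizontal axis), 1 point for each 4NP library; the dotted line marks equal shares. Many points lie at 0 on the vertical axis, up to 22.04% of the rest of the chromosome called, and the highest Tcrb point is at 85.0%.

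Clustering of calls in the loci differed from that on the rest of their chromosomes by less than 2 SE. The share of called windows with a called neighbour was 60.6% in Igh, 61.1% in Igk, 62.8% in Tcra/Tcrd and 54.8% in Tcrb. The differences from the rest of the chromosome were -2.91 ± 3.40, 1.21 ± 3.55, -0.112 ± 4.10 and -5.12 ± 11.0 percentage points (SE over all 4NP libraries).

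Co-segregation of 2 windows was measured by D′, a normalized form of linkage disequilibrium, which is 1 when the rarer window is called only together with the other, 0 when both are called independently and -1 when they are never called together. Averaged over pairs 40 to 400 kb apart, it was 0.363 in Igh, 0.179 in Igk, 0.341 in Tcra/Tcrd and 0.356 in Tcrb. Pairs at the same distances on the rest of the chromosomes had means of 0.348, 0.280, 0.357 and 0.280. The differences were 0.0145 ± 0.0657, -0.101 ± 0.0625, -0.0161 ± 0.102 and 0.0754 ± 0.211, and none of the 4 was beyond 2 SE. Blocks of the same 4 lengths were beyond 2 SE in either direction in 6.71%, 6.03%, 7.49% and 7.99% of cases. In Tcra/Tcrd 10 windows, called in fewer than 2 libraries, could not be used, so its value rests on 38.

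**Figure D5:**
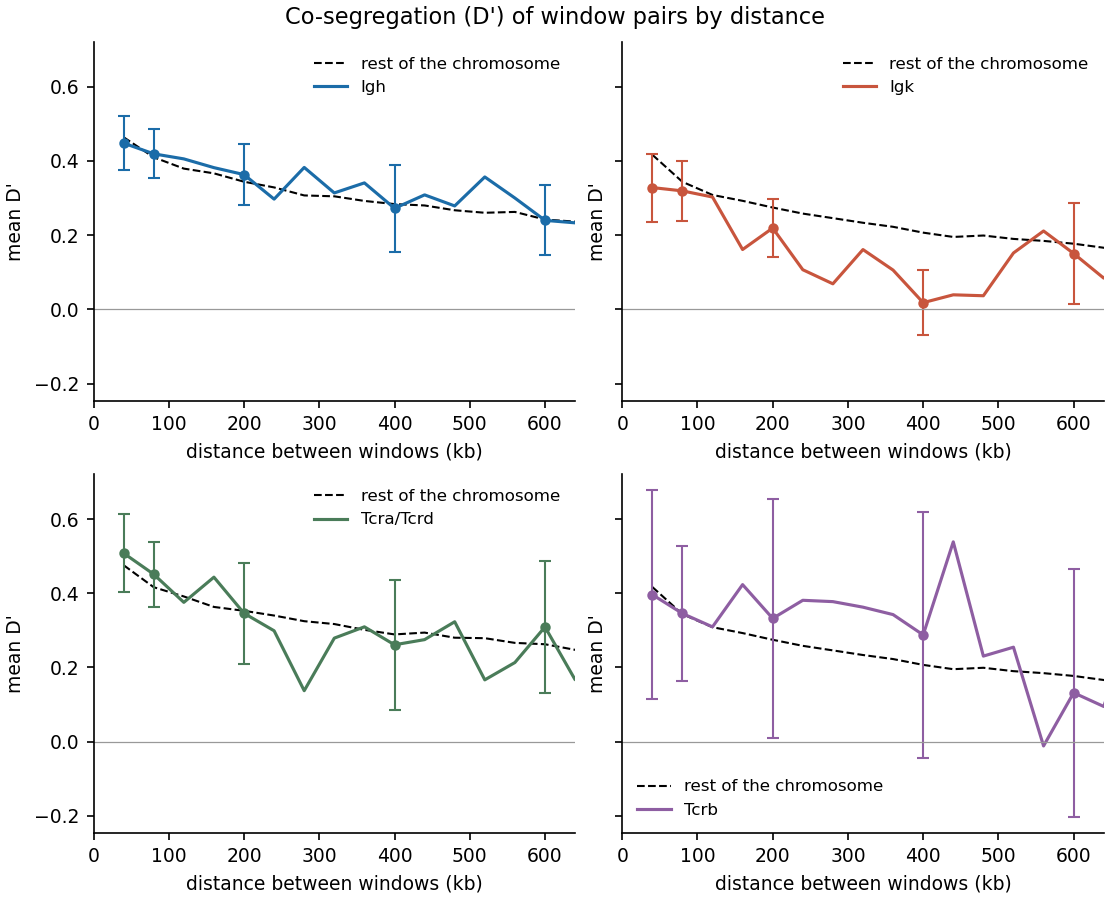
Mean D′ of window pairs (vertical axis) by their distance in kb (horizontal axis) inside each locus (coloured) and on the rest of its chromosome (dashed); error bars at 5 distances are 1 SE of the difference between both. The Igk line lies below its dashed line at 400 kb, 0.0180 against 0.207, and the Tcrb error bars are the longest at each of these distances.

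Igk had the lowest local linkage of the 4, and 9.65% of 746 blocks of its length lay lower. Its mean D′ was 0.328 at 40 kb, 0.219 at 200 kb and 0.0180 at 400 kb, where the rest of chromosome 6 had 0.417, 0.275 and 0.207. The difference at 400 kb was -0.189 ± 0.0884, over 73 pairs, and it was 1 of 20 differences computed at single distances in the 4 loci, with no adjustment for their number. At 600 kb it was -0.0264 ± 0.136. Without replicate 6 with 1 μl of proteinase K (the group titled csc-pk), or without replicate 11 of the SYBR Gold libraries, the 40 to 400 kb difference was -0.128 and -0.126, past 2 SE, with the SE taken from all libraries. With windows called in at least 10 libraries it was 0.0186 ± 0.0447, on the other side of 0.

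Between loci, D′ was compared with pairs of windows from the rest of the same 2 chromosomes, or, for Igk and Tcrb, at the same separations on chromosome 6. Of the 6 pairs of loci, 2 were lower by more than 2 SE and none was higher by D′. Tcra/Tcrd and Tcrb had a mean D′ of -0.820 against -0.405, a difference of -0.414 ± 0.0859. Igk and Tcrb, which share chromosome 6, had -0.425 against -0.182, a difference of -0.243 ± 0.0975, which with the Jaccard index in place of D′ was -0.0229 ± 0.0128 and no longer beyond 2 SE. For the same 2 pairs in the rest of the genome, 10.9% of 10560 and 3.12% of 32 pairs of blocks were lower by more than 2 SE. Of the first, 0.852% lay below the value of Tcra/Tcrd and Tcrb. The libraries with a call in Tcrb numbered 27, and 9 of them also had a call in Tcra/Tcrd, 17 in Igh and 23 in Igk. Windows of Tcrb were called in 5.20 libraries on average, and pairs of such windows that are never called together take the value -1.

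The other 4 pairs of loci were within error. The differences were 0.0438 ± 0.124 for Igh and Igk, 0.0914 ± 0.0925 for Igh and Tcra/Tcrd, -0.156 ± 0.152 for Igh and Tcrb and 0.0908 ± 0.138 for Igk and Tcra/Tcrd. In the rest of the genome 8.51%, 9.7%, 9.56% and 8.9% of block pairs of these sizes were lower by more than 2 SE, and 3.19%, 4.27%, 3.41% and 2.32% were higher. Single libraries moved these 4 differences by over 1.5 times. That of Igh and Igk turned to -0.0370 without replicate 6 with 1 μl of proteinase K titled csc and rose to 0.0777 without replicate 4 with 4 μl. That of Igk and Tcra/Tcrd turned to -0.0167 without PI replicate 7. That of Igh and Tcra/Tcrd was 0.0507 without replicate 2 of the late-frozen libraries, and that of Igh and Tcrb was -0.260 without replicate 3 with 1 μl titled csc. For the 2 pairs beyond 2 SE, leaving out any 1 library moved the Tcra/Tcrd and Tcrb difference from -0.450 to -0.385 and that of Igk and Tcrb from -0.303 to -0.222.

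Handling of the samples was compared through the percent of the 221 windows called in a library minus the percent of the rest of chromosomes 6, 12 and 14. None of 8 comparisons passed an adjusted p of 0.05 in permutation tests, exact except for PI, and the libraries of both groups overlapped in all 8. Crystal violet libraries ran from -0.839 to -0.121 percentage points (median -0.448, n = 16) and unstained ones from -10.1 to 0.632 (median -2.17, n = 5), a difference in means of 2.29 (exact permutation test, p = 0.0347, adjusted p = 0.278). The direction depends on the measure, since the crystal violet libraries had 3 calls in the loci where 20.1 were expected (ratio 0.149 ± 0.0777) and the difference of the ratios of summed calls was -0.539. The difference in means was 0.454 without unstained replicate 3, and 3.03 and 3.14 without unstained replicates 1 and 2 (exact permutation tests, adjusted p = 0.0314 and 0.0281). Coverage differed in these groups, with 0.572% and 8.66% of the rest called, and no Igh or Tcrb window was called in a crystal violet library. The difference of 4 μl against 8 μl of proteinase K was 3.95 percentage points (exact permutation test, adjusted p = 0.317, n = 7 each), and it turned to -0.276 when the Igh range was left out. The other 6 comparisons had adjusted p-values from 0.478 to 0.982 in permutation tests. For 8 against 8 libraries with eosin the difference was 3.11 and for PI against frozen PI it was 1.18.

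The water and human DNA controls gave the background. In the 11 controls with coverage under 1%, 9 of water and 2 of human DNA, the 221 windows had 1 call in 2431 pairs of window and library. Their 961 calls over the genome would place 3.22 in the loci if they were spread evenly. The other 2 water controls, replicate 4 of the full collection and the one titled unstained in the SYBR Gold test, stood apart with 21.4% and 21% of windows called. Full collection 4NP libraries ran from -12.6 to 2.77 percentage points (median -0.0743) and their 6 water controls from -0.658 to 9.81 (median -0.0531), a difference of -2.01 (exact permutation test, adjusted p = 0.478). Without water control replicate 4 it was -0.345, and without the Igh range it turned to 0.736.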

How the data were processed

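The deposited table holds 0 or 1 calls for 40 kb windows in libraries that failed the quality control of the authors. Per the labels, reads were aligned to mm9 with Bowtie2 2.1. The authors removed PCR duplicates and called a window positive at a fixed threshold of 4 reads, so the calls carry no read depth. Windows on chromosomes 1 to 19 and X were used. The windows and lists were chosen with earlier results of these data known.

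Expected calls came from each library's rate on the rest of the same chromosome, and SE from a jackknife over libraries. Windows were tested with a two-sided exact Poisson-binomial test and Benjamini-Hochberg adjustment over 63918 windows with under 50% undetermined bases. D′ used windows called in at least 2 libraries and pairs 40 to 400 kb apart. Group comparisons used two-sided permutation tests, exact or with 100000 resamples, adjusted over 8. Replicates are caps of 1 cell line, and nothing in the labels ties them to separate cultures. The permutation p-values thus measure the spread between libraries, which may be technical. The window p-values take each library's rate as given and the libraries as independent. Single-copy sequence was counted from 32-mers sampled every 100 bases of the NCBIM37 genome, whose 20 chromosome lengths matched the table. Named windows were the 2 called in most and the 2 called in fewest libraries of each locus, with ties going to the lower start, and those with fixed constant-segment and neighbouring genes. Other windows named, such as those around the Tcra/Tcrd windows without calls, farther along its V row and tied with a named window, were chosen after their values were seen. Scripts ran in Python 3.11.15 with NumPy 2.4.6, pandas 2.3.3, SciPy 1.17.1 and numba 0.67.0. The window test and call ratio were tested on simulated independent calls, and the D′ formula on simple cases. The linkage differences and group comparisons were not tested on simulated data. No 2 of the 113 libraries with at least 1% coverage had identical calls (highest Jaccard index 0.147).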

Additional observations from a re-analysis of the deposited data

Results flagged for a closer look

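In the full collection, water control replicate 4 lay far above the other 5 water controls, with 9.81 percentage points more of the 221 windows called than of the rest of chromosomes 6, 12 and 14 (gap of 0.941 of the range). It called 75 of the 221 windows, 49 of them in Igh. In the cresyl violet test, unstained replicate 3 lay far below the other 4, at -10.1 percentage points (gap of 0.715 of the range), with 13.2% coverage. Of 8 groups examined in this way 2 had such a library, and chance gives about 1 in 20 groups. The water control titled unstained in the SYBR Gold test called 17 of the 221 windows, 6 of them among the 20 of Tcrb. The source of the DNA in both water controls was not tested.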

How the results depend on the processing

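No paired analysis was possible because the replicate numbers only name libraries. Call ratios changed as follows. With 10 Mb flanks Igh was 0.856 and Tcra/Tcrd 0.790 ± 0.0913, now beyond error. Within classes of single-copy sequence Igh was 1.30, now beyond error, and the 4 loci together 1.12, and within GC classes the 4 together were 1.01. With libraries of at least 5% coverage Tcrb was 0.678, no longer beyond error, and the 4 together 1.01. Igk was 0.903 against all autosomes and 0.998 over its annotated span. Tcra/Tcrd was 0.701 ± 0.107 as a mean of ratios per library, also beyond error, and, without windows under 5% single-copy 32-mers (chosen after seeing the data), 1.02. V over other windows was 1.04 within classes of single-copy sequence and, chosen after seeing the data, 1.02 without windows under 5%, 1.08 in Igh and 0.961 in Tcrb within these classes. With all windows tested 3 were called high. The Igh local linkage difference was -0.0160 with the Jaccard index, -0.0381 at 440 to 1000 kb, -0.000518 in libraries of at least 1% coverage and -0.0672 against windows within 10 Mb. With windows called in at least 10 libraries Igk was 0.0186 and Tcra/Tcrd 0.0132, and Tcrb had no value since none of its windows was left. Tcra/Tcrd was 0.00207 at 440 to 1000 kb, and Igk with Tcrb was -0.0229 ± 0.0128 with the Jaccard index, no longer beyond 2 SE. Without Igh, the group differences were 0.736 for full collection against water, 2.71 for 3 against 4 μl of proteinase K and -0.276 for 4 against 8 μl. As a difference of ratios of summed calls, crystal violet was -0.539 and 3 against 4 μl 0.0287. The cause of these changes was not tested.

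Leaving out 1 library, the call ratio ran from 0.938 to 0.979 for the 4 together, 1.03 to 1.1 for Igh, 0.955 to 1.03 for Igk, 0.806 to 0.874 for Tcra/Tcrd and 0.541 to 0.648 for Tcrb. The local linkage difference ran from -0.0190 to 0.0270 in Igh, -0.128 to -0.0752 in Igk, -0.0834 to 0.00322 in Tcra/Tcrd and -0.0889 (without replicate 3 with 8 μl of proteinase K) to 0.121 in Tcrb. Group differences ran from 0.557 to 1.5 for PI, 0.0131 to 1.29 for SYBR Gold, 1.42 to 4.78 for eosin, -2.44 to -0.345 for full collection against water, -1.80 to 2.17 for 3 against 4 μl, 2.15 to 6.12 for 3 against 8 μl and 2.91 to 4.81 for 4 against 8 μl. Crystal violet ran from 0.454 (without unstained replicate 3) to 3.14 (without unstained replicate 2, exact permutation test, adjusted p = 0.0281), and was 3.03 without unstained replicate 1 (exact permutation test, adjusted p = 0.0314). The calls carry no read depth, and Tcrb had 104 calls in all and the crystal violet libraries 3 in the loci.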
